A study of Rattus norvegicus with 16 samples.

Results

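Gene expression in liver was compared with gene expression in epididymal fat of pair-fed (PF) rats. By tissue and feed, as the labels give them, 4 liver and 4 fat libraries entered the comparison, 8 of the 16 RNA sequencing libraries of the study. All rats, in every group, were obese males of the strain ZDF/GmiCrl-fa/fa, which carry the fa mutation of the leptin receptor on both copies and become diabetic. They were on Purina 5008 feed for 2 weeks, from 9 to 11 weeks of age. Pair feeding gives an animal the ration eaten by a treated partner. The partners in the study had R-α-lipoic acid (LA) in the same feed, and their 4 liver and 4 fat libraries are used here only to repeat the comparison. Each of the 4 PF rats gave both tissues. The labels do not say which liver library and which fat library share a rat, and the study has no lean rats.

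Liver and white fat divide much of the body's fuel handling between them. Hepatocytes, the main cells of liver, make most of the proteins of blood plasma, turn ammonia into urea, break down amino acids, oxidize foreign compounds, convert cholesterol into bile acids and release glucose. White adipocytes store triglyceride in a single large droplet, take up fatty acids that lipoprotein lipase frees from circulating lipoproteins, give fatty acids back by hormone-driven lipolysis, and secrete hormones such as leptin and adiponectin. Both tissues also synthesize fatty acids and oxidize them, often with different forms of the same enzyme. White fat holds many cells besides adipocytes, among them fibroblasts, macrophages, endothelium and, around the epididymal pad, a mesothelial lining.

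Values are FPKM, fragments scaled by transcript length and by the number of mapped fragments, so levels can be compared between genes. Differences between tissues are given as log2 fold changes of FPKM + 1, with liver over fat as the direction of every such value, and errors of means are SD over 4 libraries. Of 22517 gene symbols, 11492 reached 1 FPKM in at least 4 of the 8 libraries and were tested with limma. A gene was called at an adjusted p under 0.05 and a log2 fold change over 1 in size. Genes at 1 FPKM or more numbered 9522 to 9689 in the liver libraries and 11320 to 11480 in the fat libraries. Read totals are unknown, but the value of a single fragment, read from the steps between low values, was 0.853 to 1 times that of liver replicate 1 in liver and 0.774 to 0.959 times in fat, so depth differed little between tissues. Log2 values correlated at 0.991 to 0.994 among liver libraries, at 0.98 to 0.987 among fat libraries and at 0.51 to 0.584 between tissues. These correlations are across genes, which are not independent replicates.

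The labelled tissues carried their markers. All 11 adipocyte markers tested were higher in fat, and 10 of 12 hepatocyte markers were higher in liver. The other 2 were Alb and Tf, which encode albumin and transferrin and are treated with the genes listed at 0. The fat libraries also held low levels of hepatocyte markers. Over the 10 hepatocyte markers measured in liver, the level in fat was a median of 0.54, 0.4, 0.447 and 0.918% of the mean level in liver in fat replicates 1 to 4. The highest share was in replicate 4, where single markers ran from 0.837 to 1.66%, and the lowest in replicate 2, from 0.3 to 0.603%. Of the 285 genes with a log2 fold change over 5, the middle 50% stood in fat at 0.56 to 0.784% of their liver level, around a median of 0.622%. In the other direction the 183 genes with a fold change under -5 stood in liver at a median of 0.335% of their fat level, with a wider middle 50% of 0.0674 to 0.888%. Both sets were chosen by the ratio of the tissues, which caps these percentages, so they cannot test how even the share was. The source of this share was not tested. The size of the largest fold changes toward liver depends on it. With the liver profile subtracted from each fat library at its median share, 120 genes had a log2 fold change over 8 toward liver, against 1 without subtraction. Outside genes listed at 0 in a tissue, the largest went from 7.77 to 13.84. In bulk tissue, fewer cells of a type and less RNA per cell cannot be told apart.

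**Figure D1:**
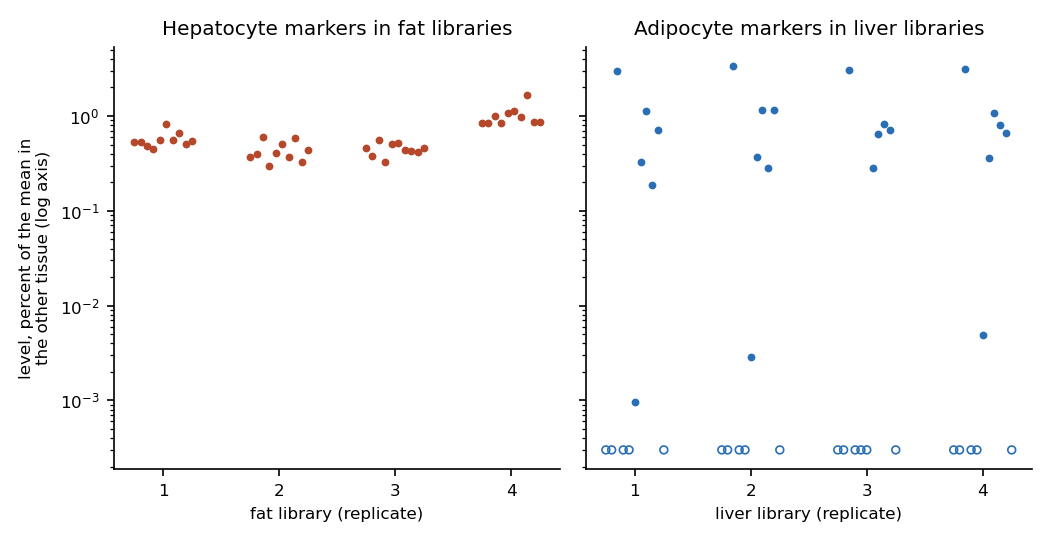
Hepatocyte markers in each fat library as a percentage of their mean FPKM in liver (left, filled points, log axis) and adipocyte markers in each liver library as a percentage of their mean in fat (right). Open points along the bottom are genes listed at 0. The 10 hepatocyte markers with a liver value lie in a narrow band in each fat library, highest in replicate 4, and the adipocyte markers in liver spread over several orders of magnitude.

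On the FPKM scale more genes were higher in fat than in liver. Of the 11492 genes tested, 5447 were called (47.4%), 1273 higher in liver (11.1%) and 4174 higher in fat (36.3%). An adjusted p under 0.05 at any size was reached by 9727 genes (84.6%), so the fold change and not the p-value decided most calls. Liver and fat libraries did not overlap in 9216 genes (80.2%). Leaving out any 1 of fat replicates 1 to 4 left 9823 to 9826 genes with 1 FPKM in 4 of 7 libraries, and 2659 to 2693 of them were higher in fat, but with the same 11492 genes tested 4149 to 4186 were. FPKM are shares of a library, and in liver the most abundant genes held more of it. The 10 most abundant genes held 19.8 ± 2.35% of summed FPKM in liver and 16.7 ± 0.674% in fat, and the 100 most abundant held 48.6 ± 1.96% and 39.1 ± 0.638%. Both differences, and that in genes reaching 1 FPKM (9572.5 ± 78.1 in liver, 11372.5 ± 72.9 in fat), had a two-sided exact permutation p of 0.0286 (0.0286 adjusted over the 3 measures), the smallest that 4 against 4 libraries allow. This takes the libraries as independent, and exchanging tissues within rats could not go below 0.125. Only 19 genes were among the 100 most abundant of both tissues. Genes listed at 0, treated below, are missing from these shares and ranks, among them Alb and Tf in liver and Scd1 in fat.

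The median tested gene had a log2 fold change of -0.66. Once each library was centred on its median, 2064 genes were higher in liver (18%) and 2253 higher in fat (19.6%), a nearly even split in place of 1273 against 4174. Scaling without the 100 most abundant genes of each tissue left 1434 against 3510. Directions below are on the FPKM scale and can be read against that median. A gene just past a log2 fold change of -1 is higher in fat only on this scale, and is then said not to be called once centred. By a fixed cut of 1 FPKM, which was not centred, genes seen in a single tissue were more often those of fat. Of 1649 tested genes that reached 1 FPKM in no liver library, 1496 were called higher in fat. Of 366 that reached it in no fat library, 331 were called higher in liver. Such genes pass the filter only through the other tissue, so the filter fixed their direction. In the LA rats, where 5372 of 11568 tested genes were called (46.4%), 1211 were higher in liver (10.5%) and 4161 higher in fat (36%). Called in both feeds were 1137 genes of liver (89.3% of the PF calls, 93.9% of the LA calls) and 3832 of fat (91.8% and 92.1%), and 0 genes were called in opposite directions.

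**Figure D2:**
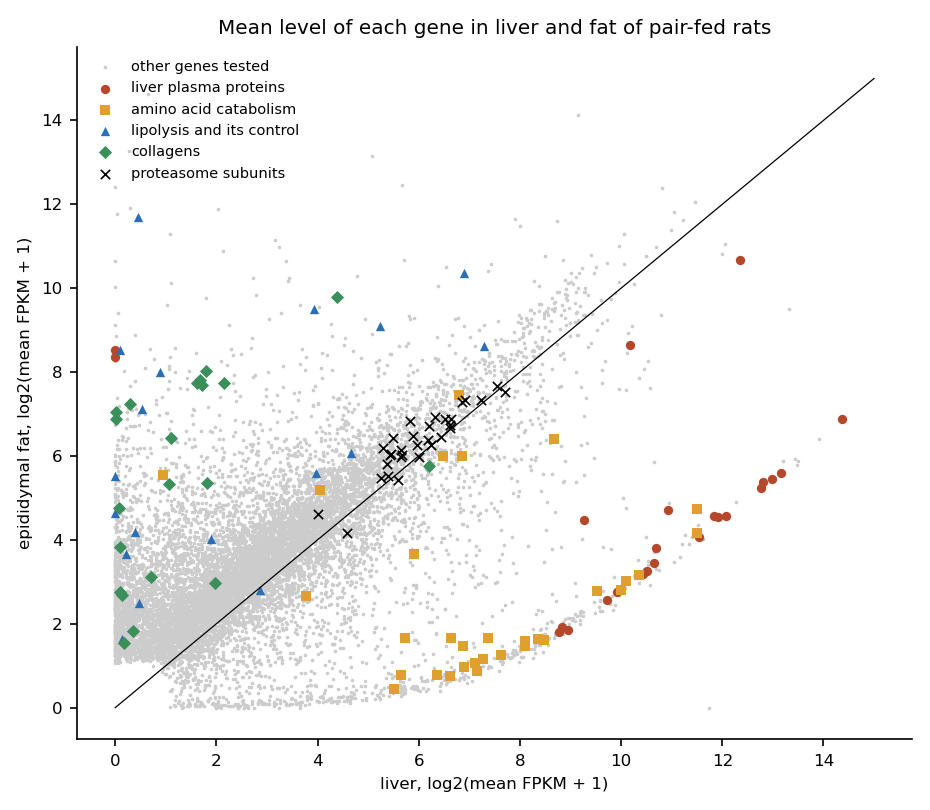
Mean level of each tested gene in liver (x axis) and in epididymal fat (y axis) of PF rats, as log2 of mean FPKM + 1, with the line of equal levels. Plasma proteins and enzymes of amino acid breakdown lie far below the line, lipolysis genes and collagens above it, and the 31 proteasome subunits along it. The 2 plasma proteins on the left edge are Alb and Tf, listed at 0 in liver.

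A value of exactly 0 needed care. Of the tested genes, 143 were listed at 0 in all 4 liver libraries and 12 in all 4 fat libraries. Some of these fit the tissue. Adipoq (adiponectin), Lep (leptin), Retn (resistin), Plin (perilipin 1, which coats the fat droplet) and Aqp7 (the glycerol channel of adipocytes) were at 0 in every PF liver library, with 5469.7 ± 189, 1610.3 ± 343, 1038 ± 186, 559 ± 62.9 and 308 ± 42.4 FPKM in fat. Others do not. Alb was listed at 0 in all 4 liver libraries and at 355, 245, 290.3 and 581 FPKM in fat, and Tf at 0 in liver and at 310.4, 333, 279 and 387 FPKM in fat. Both were at 0 in every LA liver library too, although liver is the known source of both proteins. Scd1, the desaturase that makes oleate, was at 3597, 3396, 2801 and 3765 FPKM in liver and at 0 in all 4 PF fat libraries, while the LA fat libraries held a mean of 1667 FPKM. The fat libraries of Alb ranked in the same order as the share of hepatocyte markers, from replicate 2 to replicate 4. A 0 can thus be a missing estimate, and no fold between tissues is printed for a gene at 0 in a whole tissue. Such genes stay in the call counts, list medians and figures unless stated, where their direction can come from a missing value. Without these 155 genes, 1261 genes were higher in liver and 4031 in fat. A further 38 of the genes listed here by function or cell type were at 0 in all 8 libraries, C3 (the central complement protein) and Gpx1 (the main glutathione peroxidase) among them.

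Proteins that hepatocytes export to plasma gave the highest liver levels. Of 24 plasma protein genes tested, 22 were higher in liver, and the other 2 were Alb and Tf. The median log2 fold change was 7.25, against -0.66 over all genes tested. Ttr, the carrier of thyroid hormone and of the retinol-binding protein, was the most abundant named transcript of liver, at 20054, 25679, 19069.7 and 20178 FPKM, and stood at 112, 78.9, 98.3 and 180.0 FPKM in fat. Every liver library was far above every fat library (log2 fold change 7.55, SE 0.23, limma adjusted p = 1.1e-10). Gc, the vitamin D binding protein, had 9185 ± 793 FPKM in liver and 47.3 ± 20.6 in fat, and Serpina1, the inhibitor of neutrophil elastase, had 8116 ± 735 and 43 ± 19.1. Ahsg (fetuin A), Ambp, Hp (haptoglobin, which binds free haemoglobin) and Fetub had log2 fold changes of 7.58, 7.57, 7.51 and 7.53. Rbp4, the retinol carrier that adipocytes also secrete, had a smaller fold change, at 5219 ± 317 FPKM in liver and 1640.0 ± 402 in fat (log2 fold change 1.71). The whole list summed to 13.9 to 15% of all FPKM in the liver libraries and to 0.482 to 0.705% in the fat libraries. Alb and Tf add nothing to the liver share, as they are listed at 0 there, so it may be too low.

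Most clotting genes were higher in liver. Of 25 coagulation genes tested, 18 were higher in liver and 7 in fat, with a median of 6.75. The 3 fibrinogen chains Fga, Fgb and Fgg were at 2105 ± 268, 2594 ± 299 and 2454 ± 278 FPKM in liver and at 10.1 ± 5.22, 14 ± 5.59 and 16.2 ± 5.58 in fat. Proc (protein C), Klkb1 (plasma kallikrein) and F7 had log2 fold changes of 6.86, 5.92 and 4.35. Higher in fat were F3, F13a1, Plat, Thbd, Tfpi and F8, among others, and the last 2 named lost the call once libraries were centred. F3, tissue factor, which starts clotting on cells outside the blood, was at 0.660, 1.26, 1.05 and 1.13 FPKM in liver and 136, 112, 148 and 120.4 in fat. Tissues did not overlap (-6.01, SE 0.12, limma adjusted p = 6.9e-12). F13a1, the fibrin-crosslinking chain made by macrophages, had 0.0976 ± 0.0473 FPKM in liver and 82.7 ± 4.48 in fat, and Plat, the tissue plasminogen activator, 1.76 ± 0.331 and 48 ± 8.09.

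Complement divided in a similar way. Of 25 complement genes tested, 14 were higher in liver, 9 in fat and 2 were not called (median 2.46). The lectin Mbl1, the C4-binding protein chain C4bpb and the pore-forming components C8a, C8b and C9 were among the 14, with log2 fold changes of 6.66, 6.83, 6.69, 6.46 and 7.24. Cfd, complement factor D or adipsin, which fat secretes, was at 8.52, 13.9, 8.71 and 7.97 FPKM in liver and 1198, 1245, 1291 and 1099 in fat. All fat libraries exceeded all liver libraries (log2 fold change -6.84, SE 0.15, limma adjusted p = 1e-11). C1qb, of the C1q molecule that macrophages make, had 34.5 ± 2.49 FPKM in liver and 300.2 ± 71.8 in fat, and Cd55, which protects cells from complement, had 0.0244 ± 0.0284 and 35.9 ± 4.79.

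Of 22 genes of lipoprotein assembly and turnover, 18 were higher in liver and 3 in fat (median 6.32). Apoa4, an apolipoprotein of chylomicrons and HDL, gave the largest fold change toward liver among genes with a full symbol and no tissue at 0, at 2249, 2698, 2199 and 2026 FPKM against 9.10, 4.08, 9.13 and 21.8 in fat. Its libraries did not overlap (7.77, SE 0.35, limma adjusted p = 2.4e-09). Apob, the scaffold of VLDL, and Mttp, which loads it with lipid, had 246 ± 41.5 and 56.6 ± 4.14 FPKM in liver, with fat means of 1.43 ± 0.662 and 0.389 ± 0.188. Apoc1 and Apoe were among the 10 most abundant genes of liver (11579.9 ± 984 and 10158 ± 1419 FPKM), and Apoe, which macrophages and adipocytes also make, kept 722 ± 148 FPKM in fat. The 3 genes higher in fat were Pltp, which moves phospholipid between lipoproteins, Abcg1, which exports cholesterol, and Angptl4, which inhibits lipoprotein lipase. Their log2 fold changes were -3.90, -3.56 and -1.65, and that of Angptl4 lost its call once centred.

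Genes of nitrogen metabolism were mostly higher in liver. Of 11 genes of the urea cycle and ammonia handling, 9 were higher in liver and 2 in fat (median 5.08). Cps1, the mitochondrial entry enzyme of the cycle, was at 619.6, 738, 821 and 880.2 FPKM in liver and 4.28, 3.09, 3.84 and 8.20 in fat, without overlap (7.09, SE 0.22, limma adjusted p = 1.2e-10). Ass1 and Arg1, the argininosuccinate and arginine steps, had 2930.4 ± 370.3 and 1442 ± 142 FPKM in liver. Rhbg, an ammonium channel, was among those higher in fat, with a log2 fold change of -3.15. Of 31 genes of amino acid breakdown, 26 were higher in liver, 2 in fat and 3 were not called (median 5.83). Tdo2, which opens the tryptophan ring, Tat, which transaminates tyrosine, and Uroc1 of the histidine pathway had log2 fold changes of 7.22, 6.86 and 6.28. Genes of branched-chain amino acids went both ways. Bcat2, the aminotransferase that starts their breakdown outside the liver, had 0.920 ± 0.215 FPKM in liver and 46.1 ± 1.59 in fat (log2 fold change -4.62), and Bckdk, the kinase that inhibits the next enzyme, had a fold change of -1.14, not called once centred. Bckdha and Bckdhb, subunits of that enzyme, were not called, at 0.47 and 0.86, but were higher in liver once centred (1.14 and 1.54).

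Glucose output showed both a liver pattern and a shared one. Of 15 genes of gluconeogenesis and glycogen in their liver forms, 11 were higher in liver and 1 in fat (median 3.46). G6pc, which releases free glucose, was at 420.4, 179, 181 and 129 FPKM in liver and 1.03, 1.25, 1.32 and 2.23 in fat. Liver replicate 1 was the highest, and no liver library overlapped with fat (log2 fold change 6.41, SE 0.30, limma adjusted p = 3.8e-09). Fbp1, the preceding gluconeogenic step, and Khk, which phosphorylates fructose, had fold changes of 6.90 and 6.07. Pck1, the cytosolic enzyme that makes phosphoenolpyruvate for glucose in liver and for glycerol in fat, was at 772, 722, 315 and 626 FPKM in liver and 794, 724, 724 and 373 in fat. The ranges overlapped and the gene was not called (-0.12, SE 0.31, limma adjusted p = 0.714). Pck2, its mitochondrial form, was higher in fat by 1.51, a call lost once centred.

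Bile acid, drug and iron genes were mostly those of liver. Of 15 bile acid genes, 14 were higher in liver and 0 in fat (median 6.23). Cyp7a1, which sets the pace of bile acid synthesis, ranged from 78.4 to 187 FPKM over the liver libraries and from 0.345 to 1.64 over the fat libraries (6.23, SE 0.30, limma adjusted p = 3.9e-09). Slc10a1, the uptake transporter for bile acids, and Slc27a5, which activates them, had fold changes of 7.01 and 6.90. Of 29 cytochrome P450 genes tested, 24 were higher in liver and 4 in fat (median 5.49). Cyp2e1, the ethanol-inducible form, had 1613 ± 264 FPKM in liver and 12 ± 4.82 in fat. Among the 4 were Cyp1b1, which was listed at 0 in liver and had 13.3 ± 2.33 FPKM in fat, and Cyp4b1, at 5.23 ± 0.597 and 26.8 ± 8.16. Conjugating enzymes, which attach sugar, sulphate or glutathione, were higher in liver for 23 of 30 and in fat for 2 (median 2.91). Sult1b1 and Ugt2b37 had fold changes of 6.41 and 6.63, and Gstp1, a glutathione transferase common outside hepatocytes, -3.11. Members of these enzyme families share sequence, so reads could be split among near copies. Of 16 iron genes, 11 were higher in liver and 3 in fat, 1 of the 3 being Tf. Tfr2 and Hfe2, sensors of iron upstream of hepcidin, had 89.5 ± 4.29 and 51.2 ± 10.4 FPKM in liver, while the ferritin heavy chain Fth1 had 1782 ± 55.3 in liver and 5372 ± 369 in fat (log2 fold change -1.59, not called once centred).

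The regulators of the hepatocyte program followed the same split at lower levels. Of 21 liver transcription factors tested, 17 were higher in liver and 0 in fat (median 2.83). Hnf4a, the nuclear receptor that controls many hepatocyte genes, was at 114, 80.2, 117 and 98.1 FPKM in liver and 0.673, 0.596, 0.441 and 1.70 in fat. The highest fat value was that of replicate 4, which also had the highest share of hepatocyte markers, and all liver values were above it (5.83, SE 0.19, limma adjusted p = 1.9e-10). Creb3l3, a membrane-bound factor of lipid metabolism, and Nr1i2, the pregnane X receptor, had fold changes of 6.29 and 5.37, and Nr1h4, the bile acid receptor, 4.34. Cebpa and Cebpb, which both tissues use, were not called, at -0.22 and 0.28. Of 18 liver hormones and hepatokines, 13 were higher in liver and 2 in fat. Igf1 and Igfbp1 were among the 13 (1.95 and 5.06). The 2 were Igf2 and Igfbp2, and Igfbp2, which binds IGFs, was at 0.158, 0.0790, 0.549 and 0.337 FPKM in liver and 18.1, 196, 127 and 78.6 in fat, where replicate 1 was far below the others.

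**Figure D3:**
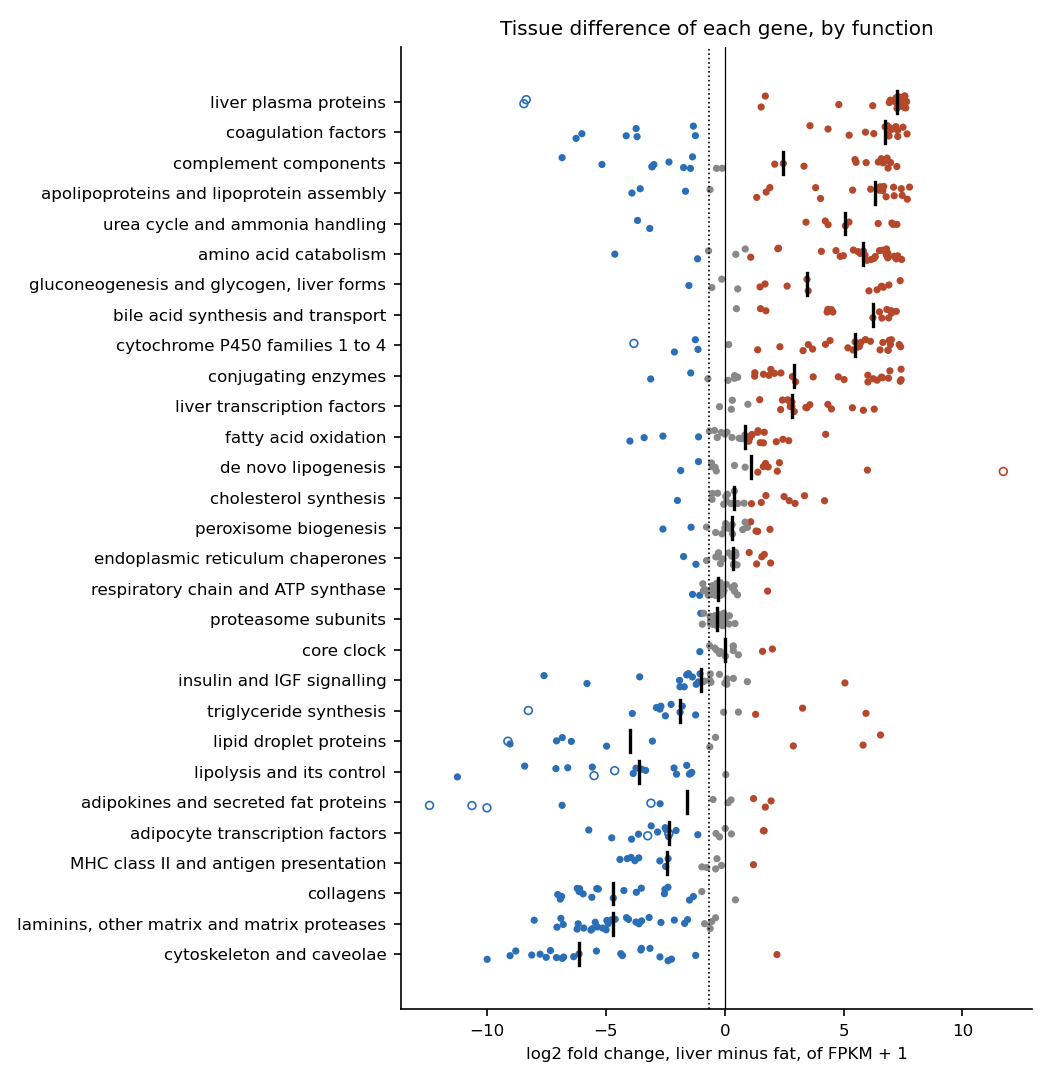
Log2 fold change of each tested gene (x axis) in 29 gene lists (rows), with list medians as black bars, 0 as a solid line and the median of all tested genes, -0.66, as a dotted line. Red points are above 1, blue points below -1, and open points are genes listed at 0 in a whole tissue. Lists of plasma proteins, apolipoproteins and bile acid genes lie to the right, lipolysis, matrix and cytoskeleton genes to the left, and proteasome, respiratory chain and clock genes in the middle.

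In fat the adipocyte proteins stood out by level and by fold change. Fabp4, the fatty acid binding protein of adipocytes, was the most abundant transcript of fat, at 26960.2, 26723, 23358 and 24016 FPKM, and was at 0.244, 0.733, 0 and 1.25 FPKM in liver. It had the largest fold change of any tested gene not listed at 0 in a tissue (-14.05, SE 0.21, limma adjusted p = 1.5e-12). Next by level was Car3, carbonic anhydrase 3, with 17797 ± 1644 FPKM in fat and 568 ± 141 in liver. Sncg (γ-synuclein) and S100b, known from nerve but also made by adipocytes, had 9879 ± 426 and 3509.8 ± 385 FPKM in fat and 0.205 ± 0.0954 and 0.0312 ± 0.0362 in liver. The Schwann cell marker Sox10 was listed at 0 in liver and at 0.0460 ± 0.0154 FPKM in fat, near 0 in both. All 5 tested genes of the Schwann and nerve list were higher in fat (4 once centred), with Pmp22, a myelin protein also made by fibroblasts, at -6.56 and Mbp, myelin basic protein, at -2.55. Nnat (neuronatin), Aoc3 (the amine oxidase of the adipocyte surface) and Tusc5 had fold changes of -11.63, -8.58 and -8.85. Of 12 genes of adipokines and secreted fat proteins tested, 6 were higher in fat and 3 in liver (median -1.60, and 0.20 over the 8 genes not at 0 in liver). The 3 were Rbp4, Igf1 and Rarres2 (chemerin), which liver also secretes, and Rarres2 had 1119 ± 109 FPKM in liver and 488 ± 103 in fat.

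Genes of lipolysis were nearly all higher in fat. Of 18 tested, 17 were higher in fat, 0 in liver and 1 was not called (median -3.62, and -3.41 without genes at 0 in a tissue). Lpl, lipoprotein lipase, was at 3915, 2867, 2582 and 4005 FPKM in fat and 0.303, 0.273, 0.263 and 0.595 in liver. All fat values were far above all liver values, none of which reached 1 FPKM (-11.25, SE 0.15, limma adjusted p = 5.8e-13). Lpl thus passed the filter through fat alone, which fixed its direction. Pnpla2 (adipose triglyceride lipase), Lipe (hormone-sensitive lipase) and Mgll (monoglyceride lipase), which remove the fatty acids of triglyceride in turn, had 724 ± 106, 253 ± 19.4 and 550.3 ± 119.6 FPKM in fat and 14.2 ± 1.93, 0.851 ± 0.0962 and 36.7 ± 3.37 in liver. Prkar2b, the regulatory subunit of the kinase that starts lipolysis, had a fold change of -8.41. Adrb3, the β3-adrenergic receptor, and Gpihbp1, the capillary anchor of Lpl, were listed at 0 in liver, with 24 ± 3.71 and 44.7 ± 8.45 FPKM in fat.

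Storage genes were mainly those of fat. Of 15 genes of triglyceride synthesis, 10 were higher in fat and 3 in liver (median -1.88). Of 12 droplet proteins, 7 were higher in fat and 3 in liver (median -4.00, and -3.04 without genes at 0 in a tissue). Dgat1 and Dgat2, which add the last fatty acid, had 18.4 ± 1.18 and 311 ± 43.3 FPKM in liver and 123 ± 2.47 and 1145 ± 152 in fat. Glycerol differed by source. Gk, glycerol kinase, and Aqp9, the glycerol channel of hepatocytes, were higher in liver by 3.28 and 5.94, and Aqp7 was listed at 0 in liver. Among droplet proteins, Cidec, which fuses droplets, was at 1694, 1557, 1420.3 and 1861 FPKM in fat and 48.5, 54.8, 49.5 and 51.1 in liver. The tissues did not overlap (-4.97, SE 0.11, limma adjusted p = 1e-11). Hsd17b13 and Hsd17b11, droplet-bound dehydrogenases, were higher in liver (6.56 and 2.88). Cidea, also known from brown fat, had 232 ± 44.6 FPKM in fat, while Ucp1, the defining brown fat gene, had 0.0195 ± 0.0391 and was at 0 in liver.

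Caveolae and cytoskeleton formed another block of fat genes. Of 23 genes tested, 22 were higher in fat and 1 in liver (median -6.13). Cav1, the coat protein of the membrane pits that cover adipocytes and endothelium, had 1111, 1074, 1038 and 1209.6 FPKM in fat and 0.844, 1.34, 0.698 and 1.75 in liver (-9.03, SE 0.14, limma adjusted p = 1.9e-12). Every fat library was far above every liver library. Cav2 and Ehd2, partners in the same pits, had fold changes of -6.83 and -7.51. Lgals1 (galectin 1), Anxa1 and S100a11 had -9.99, -8.79 and -8.12, and Tmsb10, a thymosin that binds actin monomers, had 9064 ± 595 FPKM in fat and 32.5 ± 7.21 in liver. The gene higher in liver was Krt8, a keratin of simple epithelia and of hepatocytes, at 105, 101, 106 and 135 FPKM in liver and 9.73, 37.9, 30.2 and 26.4 in fat.

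Extracellular matrix genes were mostly higher in fat. Of 21 collagens tested, 19 were higher in fat and 0 in liver (median -4.69), and of 32 laminins, other matrix proteins and their proteases, 28 were higher in fat and 0 in liver (median -4.69). Col15a1, of the basement membrane zone, was at 152, 133, 120.5 and 115 FPKM in fat, and of the liver libraries 3 listed it at 0. Col5a3, Col5a2 and Col4a2 had fold changes of -6.86, -5.32 and -5.96. Sparc, a matrix-binding glycoprotein, had 5626 ± 551 FPKM in fat and 49.6 ± 2.11 in liver, and Dcn (decorin), Mgp (a matrix protein that inhibits calcification) and Lum (lumican) had fold changes of -8.01, -7.05 and -6.89. Col18a1, source of endostatin and made by hepatocytes, was not called (0.45) but was higher in liver once centred (1.12). The fibroblast markers went with the matrix genes, with 7 of 9 higher in fat and 1, Dpp4, higher in liver, and their summed level was 544.7 to 633 FPKM in liver and 2349 to 2486 in fat. Their part in the matrix difference was not tested.

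Most transcription factors of adipocytes were higher in fat, with exceptions. Of 19 tested, 13 were higher in fat and 2 in liver (median -2.36). Pparg, the nuclear receptor that drives adipocyte formation, was at 122, 98.7, 88.2 and 143 FPKM in fat and 1.29, 1.32, 0.734 and 1.23 in liver, without overlap (-5.72, SE 0.16, limma adjusted p = 4.5e-11). Klf4 and Zfp423 had fold changes of -4.75 and -3.63, and Ebf2 and Ebf3 were listed at 0 in liver, with 8.58 ± 1.81 and 4.15 ± 0.823 FPKM in fat. The 2 higher in liver were Srebf1 and Klf15, which also act on hepatocyte lipid and amino acid genes (1.63 and 1.66). Of 28 Hox genes in the files, which record position along the body axis, 8 were tested, 7 were higher in fat and 0 in liver, and 3 stayed higher in fat once centred. Hoxc9, of the trunk, was at 6.69, 6.65, 7.50 and 6.85 FPKM in fat and at 0.0236, 0, 0 and 0 in liver. Summed over the 28, the libraries held 0.78 to 1.44 FPKM in liver and 25.4 to 32.3 in fat. With so little in liver, the tested Hox genes passed the filter mainly through fat, which largely set their direction. Of all genes tested, 36.3% were higher in fat, and 19.6% once centred.

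Markers of other cell types differed by resident population. Of 12 general macrophage markers, 10 were higher in fat and 1 in liver, and their summed level was 99.4 to 132 FPKM in liver and 881 to 1329.5 in fat. Csf1r, the receptor for macrophage growth factor, had 7.45 ± 1.12 FPKM in liver and 73.8 ± 5.19 in fat, and Trem2, a lipid receptor of macrophages, was at 0 in liver and 31.7 ± 5.45 in fat. Kupffer cell markers went both ways. Clec4f, a lectin particular to Kupffer cells in rodents, was at 45.9, 54.7, 49.3 and 43.6 FPKM in liver and 0.392, 0.435, 0.322 and 0.459 in fat. Together with Vsig4 and Cd5l it was higher in liver (5.13, 3.73 and 1.22, the last not called without fat replicate 3, at 0.99), while Cd163 and Folr2, which tissue macrophages share, were higher in fat (-2.55 and -4.55). Of 14 genes of antigen presentation, 8 were higher in fat and 1 in liver. Cd74, the invariant chain of MHC class II, had 29.6 ± 13.8 FPKM in liver and 614 ± 125 in fat, and the gene higher in liver was Psmb8, of the immunoproteasome (1.21).

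All 7 markers of vascular endothelium and all 6 of smooth muscle and pericytes tested were higher in fat, with Pecam1 at -2.90 and Myh11 at -3.50. The sinusoidal markers Stab2 and Clec4g were higher in liver (2.58 and 4.29), and Lyve1, shared with lymphatic vessels, was higher in fat (-1.41, not called once centred). Lrat, which stores retinol in stellate cells, had 6.21 ± 0.605 FPKM in liver and 0.722 ± 0.122 in fat. Of 5 stellate cell markers tested, 3 were higher in liver and 2, Des and Rgs5, which smooth muscle and pericytes share, in fat (-3.12 and -2.92), and the list summed to 19 to 21.7 FPKM in liver and 58.1 to 87 in fat. Of 7 mesothelial markers, 6 were higher in fat, and Msln (mesothelin) was at 23, 184, 177 and 117 FPKM in the fat libraries and 0.0907, 0.0906, 0.0393 and 1.28 in liver. Fat replicate 1 was far below the other 3 fat libraries and still above every liver library. A red cell transcript differed as well. Hbb, the β-globin of red cells, was at 337, 313, 195 and 181 FPKM in liver and 1413, 4019, 2094 and 3834 in fat. Every fat library held a higher level of it (-3.39, SE 0.34, limma adjusted p = 2.5e-06). It was the only gene of the erythroid list tested. Hba-a2, an α-globin gene outside that list, had a mean of 3236.6 FPKM in fat, and its liver level is not given here. FPKM are shares of a library, so blood content was not measured. Markers of epididymis and testis were at 0 in liver and summed to at most 0.0575 FPKM in fat.

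**Figure D4:**
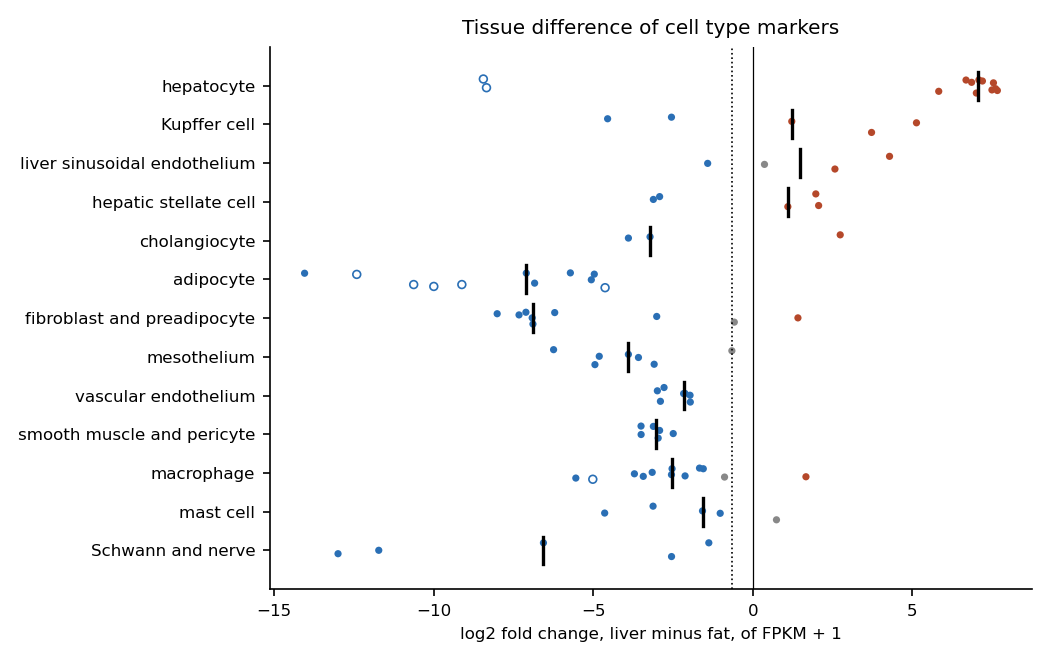
Log2 fold change of each tested cell type marker (x axis) in 13 lists (rows), with list medians as black bars, 0 as a solid line and -0.66, the median of all tested genes, as a dotted line. Red points are above 1, blue points below -1, and open points are genes listed at 0 in a whole tissue. Markers of adipocytes, fibroblasts, mesothelium, endothelium and smooth muscle lie to the left, hepatocyte markers to the right, and Kupffer cell and stellate cell markers on both sides.

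Lipogenic genes leaned toward liver and varied among fat libraries. Of 16 genes of de novo lipogenesis, which turns sugar into fatty acids, 8 were higher in liver and 2 in fat, with a median of 1.13 (10 and 1 once centred). Scd1, at 0 in PF fat, was 1 of the 8, and without it the median was 0.86. Fads2, which desaturates polyunsaturated fatty acids, was at 1119.9, 682, 700.4 and 1069 FPKM in liver and 12, 10.8, 11.9 and 16 in fat, and Elovl6, which extends palmitate, at 31.1, 25.5, 68.3 and 55.5 and 12.6, 6.81, 4.05 and 12.4. Neither overlapped between tissues (log2 fold changes of 6.0 and 2.21). Me1, which supplies NADPH for the synthesis, was among those higher in fat (-1.85). Thrsp, a lipogenic regulator, was at 2456, 2542, 3082 and 3215 FPKM in liver and 4835, 4830.4, 1384 and 5838 in fat. Fat replicate 3 was the lowest of all 8 libraries, the other fat libraries were the highest, and the gene was not called (limma adjusted p = 0.351). The summed level of the list was 6244, 5933, 2091 and 7317 FPKM in fat replicates 1 to 4.

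Fatty acid oxidation leaned toward liver. Of 29 genes, 14 were higher in liver, 4 in fat and 11 were not called (median 0.85). Ehhadh and Acaa1 of the peroxisomal pathway and Acadm of the mitochondrial one had fold changes of 4.25, 2.69 and 1.66. The 4 higher in fat were Cpt1b, Cpt1c (not once centred), Crat and Pex11a, and Crat, which moves acetyl groups as carnitine esters, had 1.89 ± 0.496 FPKM in liver and 29.1 ± 2.94 in fat. A gene of ketone body use was far higher in fat. Oxct1, which activates acetoacetate for use as fuel and is known to be absent from hepatocytes, was at 0.412, 0.978, 0.402 and 0.615 FPKM in liver and 413, 343, 323 and 416 in fat. No liver library reached 1 FPKM (-7.87, SE 0.13, limma adjusted p = 2.6e-12). Oxct1 thus passed the filter through fat alone, which fixed its direction. Of the 21 genes of cholesterol synthesis, 8 were higher in liver and 12 were not called (median 0.41). Nsdhl, a late step, had a fold change of 2.96, and Insig1, which holds the pathway back, was higher in fat (-1.99).

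Lipoate-dependent enzymes carry the cofactor that the treated partners received. Of 20 genes tested, 7 were higher in fat, 4 in liver and 9 were not called (median 0.18). Once centred, 3 were higher in fat and 9 in liver. Among all tested genes, 36.3% were called higher in fat and 11.1% in liver, and 19.6% and 18% once centred. Ogdh, of the citric acid cycle, was at 32, 29.6, 33.8 and 32.1 FPKM in liver and 179, 126, 144 and 122 in fat, without overlap (-2.11, SE 0.12, limma adjusted p = 2.2e-08). The pyruvate dehydrogenase kinases split, with Pdk2 higher in liver (1.94) and Pdk3 higher in fat (-2.01). Gldc and Gcsh of the glycine cleavage system were higher in liver (4.86 and 1.15), and Lias, which makes lipoate on the enzymes, was not called (0.52) but was higher in liver once centred (1.20).

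Sets of related enzymes were compared step by step, with a form known from liver beside a form known from other tissues. Of the 18 pairs, 13 had a first member called higher in liver and a second called higher in fat or, for Aqp7, listed at 0 in liver. In 2 further pairs the second or first gene (Cox7a1, Plin5) was not matched and is not analysed here, and 3 did not divide. Glucose enters cells by different proteins. Slc2a2, the low-affinity transporter, was at 178, 203, 210.2 and 213 FPKM in liver and 1.24, 0.883, 0.749 and 1.57 in fat, and Slc2a4, the insulin-responsive one, at 0.0746, 0.112, 0.324 and 0.318 and 43.8, 39, 30.7 and 44.6. In neither gene did the tissues overlap, and the log2 fold changes were 6.59 and -5.06.

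Lower in glycolysis, Pklr, the liver pyruvate kinase, was at 206, 203, 288 and 243 FPKM in liver and 0.849, 0.660, 1.49 and 2.58 in fat, and the gene listed as Pkm2, the form of muscle and most other tissues, at 1.61, 2.04, 1.82 and 2.32 and 149, 162, 95.4 and 133. The 2 genes were high in opposite tissues, with log2 fold changes of 6.67 and -5.50 (limma adjusted p = 1.8e-10 and 5.4e-11). Ldhb, the lactate dehydrogenase chain of oxidative tissues, had 1.26 ± 0.520 FPKM in liver and 378 ± 39.7 in fat, and Ldha, with 1196 ± 76.4 and 545 ± 62, was the less uneven partner. Of the glycogen enzymes, Gys2 and Pygl were higher in liver (1.49 and 1.70) and Gys1 and Pygb higher in fat (-2.70 and -3.28), although fat kept 8.10 ± 2.25 FPKM of Gys2 and 45.4 ± 14.2 of Pygl.

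Fatty acid handling split in the same way. Of 18 genes of fatty acid uptake and binding, 10 were higher in liver and 8 in fat. The median of 2.06 lies in the gap between them, and was -1.22 to -1.13 over the 14 genes tested without liver replicate 1, 2, 3 or 4. Fabp1, the liver fatty acid binding protein, was at 12044, 13900.0, 9360.3 and 9312 FPKM in liver and 64.6, 41.2, 46 and 88.4 in fat, the reverse of Fabp4. Cpt1a and Cpt1b, the gates of mitochondrial fatty acid entry, had fold changes of 2.45 and -3.99, and the transport proteins Slc27a2 and Slc27a1 6.82 and -1.48, of which the last was not called once centred. Lipc, hepatic lipase, had 316 ± 29.1 FPKM in liver and 1.88 ± 0.457 in fat, against the fat pattern of Lpl, and Cideb, which loads VLDL, had 5.82 against -4.97 for Cidec. Among nuclear receptors, Ppara, which governs fatty acid oxidation, was at 15.6, 13.7, 17.9 and 13.1 FPKM in liver and 1.64, 0.952, 1.34 and 1.70 in fat (2.74), against the fat pattern of Pparg. In methionine metabolism Mat1a was higher in liver (7.28) and Mat2a in fat (-2.33).

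The 3 pairs that did not divide each had their own pattern. Pfkfb1, the liver form of the enzyme that sets fructose 2,6-bisphosphate, was at 45.2, 44.1, 27.9 and 47.7 FPKM in liver and 30.4, 28, 21.1 and 30.8 in fat, with overlap (0.55, not called, but higher in liver once centred, at 1.22, so that the pair then divides), while its partner Pfkfb3 was higher in fat (-6.73). Acaca, the cytosolic acetyl-CoA carboxylase of lipogenesis, was at 24.9, 17.5, 38.8 and 37.8 FPKM in liver and 82.9, 27.5, 20.3 and 66.7 in fat. The fat libraries spanned the liver range on both sides, and the gene was not called (-0.55, limma adjusted p = 0.232), while Acacb, the mitochondrial form, was higher in liver (2.30). Arg2 did not reach the level tested, with 0.111 ± 0.105 FPKM in liver and 1.53 ± 0.655 in fat.

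The stretches upstream of 5 of these genes are shown as examples. They are the 100 bases before the start of transcription on the gene's own strand, 5′ to 3′, from RefSeq on the GRCr8 assembly, with the letters TATAAA in capitals wherever they occur. They lie at chr4:104749240-104749339 (plus strand) for Fabp1, chr2:176841164-176841263 (plus strand) for Pklr, chr8:68953535-68953634 (plus strand) for Pkm, the current symbol of Pkm2, chr16:17017068-17017167 (plus strand) for Mat1a and chr4:106053613-106053712 (minus strand) for Mat2a.
Fabp1: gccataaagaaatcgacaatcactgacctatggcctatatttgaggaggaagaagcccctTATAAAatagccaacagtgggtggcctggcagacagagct
Pklr: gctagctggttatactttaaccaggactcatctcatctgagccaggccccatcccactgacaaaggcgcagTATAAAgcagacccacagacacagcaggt
Pkm: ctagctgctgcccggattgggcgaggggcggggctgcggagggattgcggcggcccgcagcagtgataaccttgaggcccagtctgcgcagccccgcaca
Mat1a: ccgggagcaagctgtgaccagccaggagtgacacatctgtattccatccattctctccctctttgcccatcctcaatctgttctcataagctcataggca
Mat2a: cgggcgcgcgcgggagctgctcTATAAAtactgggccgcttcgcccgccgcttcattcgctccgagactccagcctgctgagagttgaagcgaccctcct
TATAAA began 40 bases before the start in Fabp1, 29 bases before it in Pklr and 78 bases before it in Mat2a, and did not occur in the stretches of Pkm and Mat1a. Of the 2 genes higher in liver that form pairs here with Pkm and Mat2a, Pklr held it and Mat1a did not. Among pair genes with such a stretch at hand, only Fabp1, Pklr and Mat2a held it. Cideb, Cidec, Gys1, Gys2, Ldha, Ldhb, Ppara and Pparg, for example, did not. The genes shown are thus no measure of how common it is among the pairs.

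Over the 250 bases before the start, on either strand, TATAAA occurred in 11.1% of 796 genes higher in liver with a promoter in the RefSeq table and in 7.99% of 2615 genes higher in fat, beside 7.13% of 7235 tested genes and 14.1% of all 27457 promoters. With a log2 fold change over 3 the shares were 16.3% of 325 liver genes and 9.28% of 485 fat genes. On the gene's own strand, starting 40 to 21 bases before the start, it occurred in 3.39% of liver genes, 1.26% of fat genes and 1.24% of tested genes. A match is a run of letters and not a shown site, and genes with several promoters in the table can match by any of them. The longer elements named next were counted as exact letters only, in 1 (HNF1) and 16 (direct repeat) of all 27457 promoters. These are too few to compare liver with fat, and looser forms of the elements were not counted. GTTAAT and ATTAAC with any 1 base between them, the letters of the HNF1 element, occurred in 0 of the 7235 tested genes, and AGGTCA and AGGTCA with any 1 base between them, a direct repeat bound by nuclear receptors, in 1 liver gene (Fads6) and 1 fat gene (Wtap, not called once centred).

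Few proteasome and respiratory chain genes were called. Of 31 proteasome subunits, 0 were higher in liver, 1 was higher in fat and 30 were not called (median -0.33, and 0.34 once centred). Of 42 genes of the respiratory chain and ATP synthase, 1 was higher in liver and 2 in fat (median -0.29, and 0.39 once centred). Atp5g1, a subunit of the ATP synthase ring, had 345 ± 20.1 FPKM in liver and 99.8 ± 22.2 in fat, and Cox8a, of cytochrome c oxidase, 513 ± 23.1 and 1322 ± 191 (not called once centred). The clock list had 2 of 13 genes higher in liver, Nfil3 and Bhlhe40 (2.00 and 1.59), and 1 higher in fat, Per1 (-1.05, not called once centred or without fat replicate 4, liver replicate 1 or liver replicate 3, where it was -0.96, -0.88 and -0.96), around a median of 0.03 that went to -0.087 without fat replicate 2, to -0.069 without fat replicate 4 and to -0.028 without liver replicate 4. Endoplasmic reticulum chaperones were higher in liver for 5 of 21 and in fat for 2 (11 and 1 once centred), with the disulfide isomerase P4hb at 790.5 ± 115 FPKM in liver and 266 ± 24.1 in fat. Peroxisome biogenesis genes were higher in liver for 4 of 19 and in fat for 2 (9 and 1 once centred). Of all tested genes 37.6% were called once centred.

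Calls in the signalling and defence lists depended on the scale. They can be read beside all tested genes, of which 36.3% were higher in fat and 11.1% in liver (19.6% and 18% once centred). Of 24 genes of insulin and IGF signalling, 12 were higher in fat and 1 in liver (6 and 3 once centred). Akt2, the kinase of insulin-driven glucose uptake, had 29 ± 2.16 FPKM in liver and 109.6 ± 7.85 in fat (-1.88), and Grb10, which restrains the receptor, 0.239 ± 0.0709 and 13.9 ± 2.03. Of 17 interferon-response genes, 7 were higher in fat and 0 in liver, and once centred 1 was higher in fat and 3 in liver. In the LA rats, without centring, 1 of them was called higher in fat and 3 in liver, so the PF counts did not repeat there. Of 20 genes that remove superoxide and peroxide, 6 were higher in fat and 4 in liver, with a median of -0.15 that turned to 0.52 once centred and 0.08 when libraries were scaled without their most abundant genes. Gpx3, the secreted glutathione peroxidase, was at 1188, 1119.8, 1256 and 1268 FPKM in fat and 6.59, 5.98, 3.30 and 6.67 in liver, and Cat (catalase) had 1482 ± 112 FPKM in liver and 308 ± 43 in fat (-7.55 and 2.27).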

How the data were processed

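RNA was sequenced from liver and epididymal fat of ZDF rats, with libraries made from 4 µg of total RNA with a TruSeq kit that does not mark strand, per the labels' protocols, so reads of a gene and its antisense partner cannot be told apart. The submitters' processing notes name CASAVA 1.8.2, TopHat 0.12.8 (as printed there) and Cuffdiff, with build and annotation not given in the sources used here. As FPKM the authors deposited 1 value per gene symbol and library, per the file headers, with no counts. The members and gene lists were chosen with earlier results of these data known.

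Genes reaching 1 FPKM in 4 or more of the 8 libraries entered limma 3.58.1 (R 4.3.3) on the scale of log2(FPKM + 1), with its trend option and p-values adjusted by Benjamini-Hochberg. Libraries were taken as independent, and a call needed an adjusted p under 0.05 and a log2 fold change over 1. The pseudocount understates the fold changes of low genes. The labels call the libraries biological replicates and give 4 rats per feed. Of 980 genes in 57 lists and the enzyme pairs, 891 matched by symbol, 32 by another name in the RefSeq table of GRCr8 and 57 were not matched and are not analysed here. Genes named were the 15 largest changes per direction without overlap or a tissue at 0, up to 4 members of each list by adjusted p with up to 3 of the other direction, all members of the enzyme pairs, the 10 most abundant genes of each tissue and list members at 0 in a whole tissue. Unnamed gene models are left out, not all genes of the rule are printed, and other list members were named after their values were seen. Library measures were compared by exact permutation with scipy 1.17.1. Promoters came from the RefSeq table. Protein sequences were not used here, and some genes are not reported here.

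Alternatives were no mean-variance trend, fold change thresholds of 0 and 2, a joint model of the 16 libraries, leaving out each replicate, a block by replicate number, median centring, scaling without the 100 most abundant genes of each tissue, a filter on the mean or none, a pseudocount of 0.1 and dropping the genes listed at 0 throughout a tissue. Leaving out replicates with the genes tested held fixed, subtraction of the liver profile from fat, and the narrower TATAAA window were added after seeing the data. The subtraction took away the liver mean times the median share of hepatocyte markers in that fat library. It changed no call of a named gene but raised the largest fold changes toward liver. On simulated data with 200 changed genes among 11492, the fit recovered 98.2% of changes of 1.5, 97.2% of changes of 2 and 100% of changes of 3 on the log2 scale, with 1 false call. With so few genes changed, against 5447 called in the data, this says nothing about the choice of scale. Figures were drawn with matplotlib 3.10.9.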

Additional observations from a re-analysis of the deposited data

Results flagged for a closer look

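Single libraries that stood apart within a tissue were sought in 436 groups of 4 libraries, the 215 genes named here in each tissue and the library measures. The gap of the most distant library to its neighbour, as a share of the range of log2(FPKM + 1), was above Dixon's 95% critical value in 36 of them. Chance flags about 1 in 20 such groups.

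In fat, 9 were set apart by replicate 4. Apoc1 (0.863), Mttp (0.944), Igfbp1 (0.873), Anxa1 (0.859) and Klf4 (0.835) were highest there, and Lipe (0.872), Pck1 (0.877) and Igf2 (0.837) lowest. Mttp, for example, was at 0.304, 0.297, 0.285 and 0.670 FPKM, and replicate 4 is the fat library with the highest share of hepatocyte markers. Ucp1 (1.0) was above 0 in replicate 4 alone, at a trace. Replicate 3 was lowest for Thrsp (0.868), Rbp4 (0.933), Ldha (0.859), Gys2 (0.843) and Gcsh (0.932). Replicate 2 was highest for C1qb (0.864) and lowest for Ehhadh (0.877), and replicate 1 was lowest for Gldc (0.879) and Krt19 (0.841).

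In liver, replicate 4 was highest for Msln (0.938), Lum (0.859), Lpl (0.866), Krt8 (0.853), Cd163 (0.841), and, with the other 3 at 0, Col15a1 and Tusc5 (1.0 each). Hoxc9 was above 0 in replicate 1 alone and Col5a3 in replicate 3 alone (1.0 each). Liver replicate 4 also had the most genes reaching 1 FPKM (0.88). Replicate 3 was lowest for Gpx3 (0.836), Pfkfb1 (0.852) and Pparg (0.862) and highest for Rgs5 (0.885), replicate 2 highest for Cfd (0.845) and Sncg (0.862), and replicate 1 lowest for Plat (0.834) and Tdo2 (0.909).

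Among the named genes, a limma interaction of tissue and feed passed for Scd1 alone. The fitted 12.1 (log2 scale, PF minus LA) comes from the 0 listed in all 4 PF fat libraries, which can be a missing estimate, and is no measure of size.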

How the results depend on the processing

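The files hold no read counts, so counting error cannot be given, and differences of genes near 1 FPKM are compressed by the pseudocount. Gene counts moved with the scale and the threshold. Median centring gave 2064 genes higher in liver and 2253 in fat, no fold change threshold gave 2118 and 7609, and a threshold of 2 gave 765 and 1740. With each replicate left out in turn the count higher in fat ranged from 2659 to 4191, lowest without any 1 fat replicate, where fewer genes passed the filter, and 4149 to 4191 with the same genes tested. The other settings kept both counts within 1.5 times. With 7 libraries the exact permutation test cannot go below 0.0571, so the library measures no longer passed. Their differences, liver minus fat, ranged from -1839 to -1764 for genes at 1 FPKM or more, from 2.16 to 3.88 percentage points for the 10 most abundant genes and from 8.58 to 9.98 for the 100 most abundant. Shares of promoters with TATAAA moved with the choice of genes and window, to 16.3% for liver and 9.28% for fat with a log2 fold change over 3, and to 3.39% and 1.26% on the own strand at 40 to 21 bases. Of 44 list medians, these changed sign. With replicates left out, fatty acid uptake ranged from -1.22 to 2.39 (-1.22 to -1.13 without a liver replicate), adipokines from -1.69 to 0.40 (0.10 to 0.40 without a fat replicate, and 0.20 without genes at 0) and the clock list from -0.087 to 0.17 (-0.087, -0.069 and -0.028 without fat replicates 2 and 4 and liver replicate 4, also with the same genes tested). Centring gave 0.52 for peroxide removal (0.077 when scaled without abundant genes), 0.39 for the respiratory chain and 0.34 for the proteasome. Among named genes, centring reversed the sign of Acaca (0.12), Cebpa (0.46, and 0.0088 when scaled), Pck1 (0.55, 0.11 when scaled, 0.16 without liver replicate 3 and -0.37 without fat replicate 4) and Thrsp (0.27), none of them called. Centring also made 5 named genes called in liver, Bckdha, Bckdhb (also when scaled, 1.09), Col18a1, Lias and Pfkfb1, and ended 12 calls. The replicate block, as pairing by replicate number, gave 1273 and 4174 genes and changed no call. Deviations of same-numbered liver and fat libraries correlated at 0.0736, 0.304, 0.125 and -0.0313, so the numbers were not taken to pair libraries.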

Other observations

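The fat libraries differed among themselves in ways that crossed gene functions. Mesothelial markers summed to 59, 402, 422 and 271 FPKM in fat replicates 1 to 4. Upk3b, a uroplakin of the mesothelial surface, was at 7.69, 60.8, 72.3 and 37.8 FPKM and Krt19, a keratin of that layer, at 5.85, 51.9, 44 and 37.2. Igfbp2, Krt8 and Msln were lowest in the same library. Replicate 1 was the lowest for each, and still above the liver libraries for all of them but Krt8.

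Lipogenic genes had another low library. Me1 was at 249, 207, 75.8 and 337 FPKM and Acly, which makes cytosolic acetyl-CoA, at 134, 86.2, 51.1 and 193. Replicate 3 was the lowest fat library for both, as it was for Thrsp and Acaca. Acly also varied in liver, at 214, 161, 394 and 406 FPKM, where replicates 3 and 4 were the higher ones, and its tissues overlapped.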
